A study of Mus musculus with 8 samples.

Results

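The 2'-5'-oligoadenylate synthetase (OAS) family was examined in Lewis lung carcinoma (LLC) tumors with and without Ago2 in the cancer cells. The members are the 8 mouse genes Oas1a, Oas1b, Oas1c, Oas1g, Oas2, Oas3, Oasl1 and Oasl2, found by matching their symbols to the identifiers in the count table, which holds 55487 genes. All 8 were counted in every tumor, and all 8 passed the filter on low counts. LLC cells are a mouse lung carcinoma line, and they were grown under the skin of syngeneic C57BL/6J mice until day 12. The 4 wild-type tumors came from unedited LLC cells, and the 4 ΔAgo2 tumors came from LLC cells in which Ago2, the slicing Argonaute protein of RNA interference, was disrupted by a lentiviral CRISPR guide. The ΔAgo2 cells are 1 single-cell clone, so the deletion and the clone cannot be told apart. Host cells in both groups keep Ago2, and RNA was taken from whole tumors, so fewer cells of a type and less RNA per cell cannot be told apart.

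OAS enzymes are made in low amounts by resting cells and are induced by interferon. Double-stranded RNA, a by-product of many viral infections, switches them on, and they then join ATP into short chains with 2'-5' bonds. These chains serve as a second messenger of antiviral defence. The 2 OAS-like genes carry ubiquitin-like repeats behind the synthetase fold, and Oasl1 is known as a translational repressor of Irf7.

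The family lies on mouse chromosome 5 in a pair of blocks (GRCm38). Oas1a, Oas1b, Oas1c, Oas1g, Oas2 and Oas3 sit with other Oas1 paralogs in a cluster of 10 genes that spans 191 kb, at chr5:120730333-120921652. Oasl1 and Oasl2 form a pair that spans 41.0 kb, at chr5:114896936-114937915. The starts of Oas1c and Oas1b point away from each other across a gap of 120 bp.

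Promoter sequence is shown because the interferon response element, the sequence bound by a complex that holds STAT2 and IRF9, marks many interferon-induced genes. RefSeq windows from 250 bases before to 50 bases after the start were matched for 6 of the 8 members on GRCm38.p6, all but Oas1b and Oas2. The letters GAAANNGAAA, searched on both strands, occurred in 4 of the 6 genes, and in 3.44% of 32851 promoter windows of the genome. The 4 stretches follow, 5′ to 3′ on the gene's own strand (minus for each), with the matching letters in capitals.

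Oas1a, chr5:120907526-120907615: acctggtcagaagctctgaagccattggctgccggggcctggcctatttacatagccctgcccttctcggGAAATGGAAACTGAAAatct

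Oas1g, chr5:120887614-120887703: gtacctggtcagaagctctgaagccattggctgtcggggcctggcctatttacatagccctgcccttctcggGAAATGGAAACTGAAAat

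Oas3, chr5:120777660-120777749: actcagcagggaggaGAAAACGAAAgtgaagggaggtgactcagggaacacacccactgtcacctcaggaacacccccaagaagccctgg

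Oas1c, chr5:120812515-120812634: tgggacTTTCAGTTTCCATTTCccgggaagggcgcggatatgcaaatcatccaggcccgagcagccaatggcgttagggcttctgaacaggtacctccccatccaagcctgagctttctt

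The 16 bases in capitals in Oas1a and Oas1g are identical and hold 2 overlapping copies of the motif. They begin 20 bases before the start in Oas1a, at position -20, and at position -18 in Oas1g. The Oas1a and Oas1g windows share an unbroken run of 73 identical bases, and Oas1a and Oas1g are thus close copies in the promoter as well as in the transcript. In Oas1c the same 16 bases lie on the other strand from position -114, at the far end of the gap, where they end 7 bases before the start of Oas1b. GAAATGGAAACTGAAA was found in 7 of the 32851 windows, or 0.0213%, which belong to 5 genes: Oas1a, Oas1g, Oas1c, Apol9a and Apol9b. These 16 letters are those of the Oas1a window itself, so the match in Oas1a is given by the choice of letters. The match in Oas1g lies in the run shared with Oas1a, and the low percentage is thus not independent of these genes. With any letter at the open positions (N) of the 2 motif copies, 38 windows (0.116%) matched. They belong to 36 genes, with Oas1a, Oas1g and Oas1c among them. Oas3 carries 1 copy of the shorter motif, from position -75. No match to GAAANNGAAA was present in the windows of Oasl1 and Oasl2. A second element, TTCNNNGAA, the core letters of sites for STAT dimers, was present in Oas1a alone among the 6 genes and in 8.30% of all windows. These matches describe letters and not binding.

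Depth differed widely between tumors, from 7903288 counts in wild-type tumor 4 to 268564145 in ΔAgo2 tumor 4. The limit that a count of 0 allows, taken as 3 counts, was thus between 0.0112 and 0.380 counts per 1000000 (CPM), for counting error only. Ago2 itself was at 154 ± 28.9 CPM in wild-type and 239.5 ± 99.2 CPM in ΔAgo2 tumors (SD, n = 4 each), with an adjusted p of 0.205 in edgeR's quasi-likelihood test, and its RNA level therefore does not check the labels. Of the lung carcinoma markers, Krt8 and Krt18 were present and Nkx2-1 was at 0 in every tumor. Of 16061 genes tested with edgeR, 560 passed an adjusted p of 0.05, which is 3.49%. Genes higher in ΔAgo2 tumors made up 1.36% of those tested and genes lower made up 2.12%.

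The question for the family was whether its members differ between wild-type and ΔAgo2 tumors, and whether the paralogs do so together. All 8 fold changes were above 0, against 52.5% of all genes tested, and their median on the log2 scale was 0.71 (range 0.60 to 1.61), against 0.04 over all genes. Oas2 alone passed the adjusted threshold, 1 of 8 members against the 1.36% of genes called higher. At an unadjusted p of 0.05, 4 of 8 members were past the threshold (Oas2, Oasl2, Oas1g and Oasl1), against 13.7% of genes called higher in that way. In CPM, Oas2 and Oasl2 were the 2 members whose wild-type and ΔAgo2 tumors did not overlap, against 8.05% of genes apart in that direction. The 8 genes were measured in the same tumors, so they are not independent observations.

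**Figure D1:**
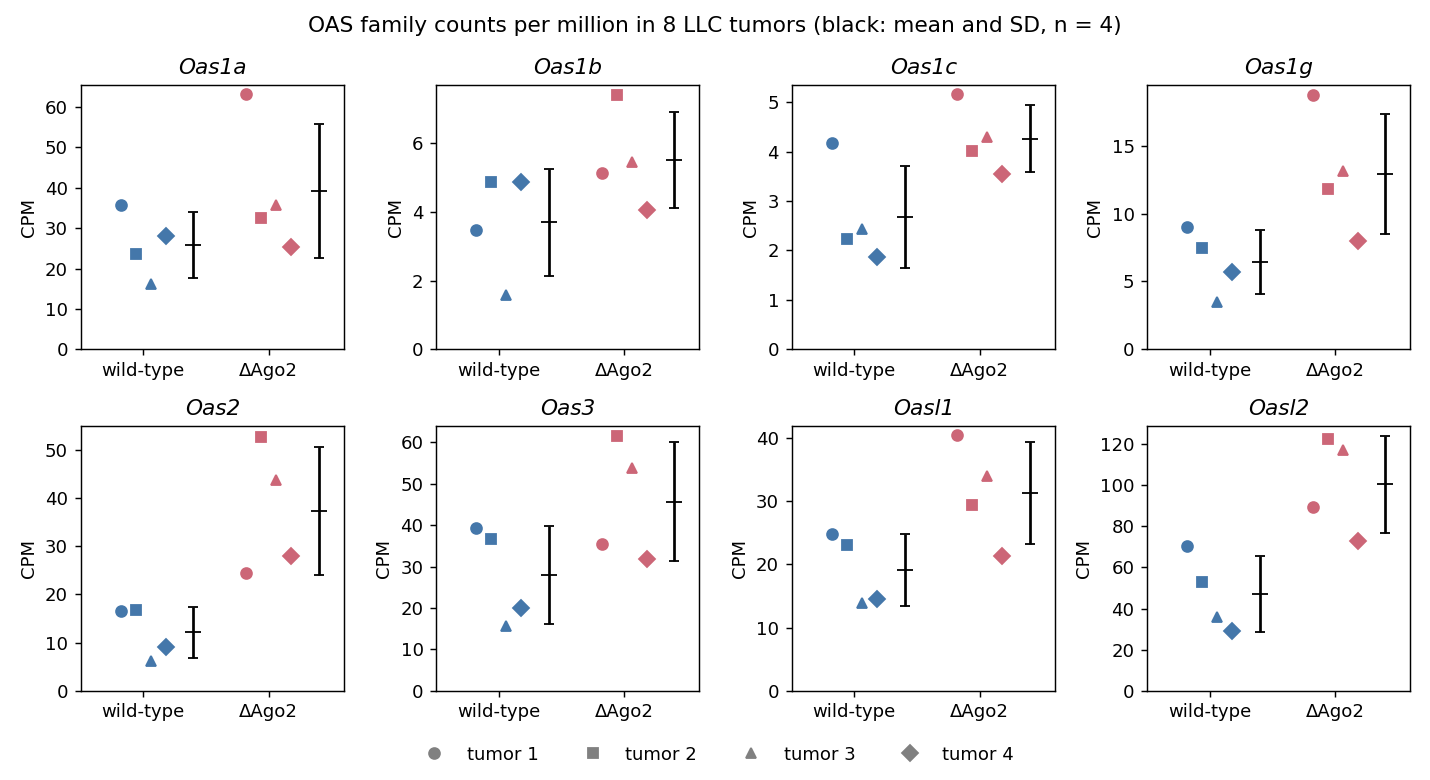
CPM (y axis, from 0) of each OAS gene in the 4 wild-type (blue) and 4 ΔAgo2 (red) tumors, with symbols for tumor number and black bars for mean and SD. In Oas2 and Oasl2 every red point lies above every blue point, and in the other 6 genes the groups overlap.

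Oas2 encodes a synthetase with a tandem pair of OAS units and is located at chr5:120730333-120749853 on the minus strand. Its level was 16.6, 16.7, 6.16 and 9.17 CPM in wild-type tumors 1 to 4, and 24.4, 52.6, 43.9 and 28.0 CPM in ΔAgo2 tumors 1 to 4. The lowest ΔAgo2 tumor was above the highest wild-type tumor. Means were 12.2 ± 5.33 CPM in wild-type and 37.2 ± 13.3 CPM in ΔAgo2 tumors (SD, n = 4 each). Oas2 rose 3.05-fold, or by 1.61 ± 0.37 (SE) on the log2 scale, with a 95% interval from 0.80 to 2.42 and an adjusted p of 0.0435 (edgeR quasi-likelihood test, Benjamini-Hochberg). The call was near the threshold: Oas2 stayed past it in 11 of 23 alternatives, over which its log2 fold change was 1.38 to 1.86 and its adjusted p 0.00114 to 0.212. Leaving out wild-type tumor 2 or 4, or ΔAgo2 tumor 2, 3 or 4, ended it, with adjusted p of 0.0916, 0.109, 0.131, 0.101 and 0.0882.

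Oas3 encodes the largest synthetase, with several OAS units in a row. It lies next to Oas2 at chr5:120753098-120777661. Its level was 39.2, 36.7, 15.7 and 20.1 CPM in the wild-type tumors and 35.5, 61.6, 53.9 and 31.7 CPM in the ΔAgo2 tumors. Wild-type tumors 1 and 2 were above 2 of the ΔAgo2 tumors, and the groups overlapped. The log2 fold change was 0.71 ± 0.34 (SE), with a 95% interval from -0.03 to 1.45 and an adjusted p of 0.204.

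The Oas1 genes encode synthetases with a single OAS unit. Oas1a, at chr5:120896256-120907521, is an active synthetase and was at 35.6, 23.6, 16.2 and 28.0 CPM in wild-type and 63.1, 32.6, 35.8 and 25.2 CPM in ΔAgo2 tumors. ΔAgo2 tumor 1 stood above the rest, and the remaining tumors of both groups were mixed. The log2 fold change was 0.60 ± 0.32 (SE), with an adjusted p of 0.251, and it was 0.26 without ΔAgo2 tumor 1. Under voom with quality weights it was 0.05.

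Oas1g, at chr5:120876142-120887613, is also an active synthetase. It was at 8.98, 7.48, 3.51 and 5.73 CPM in wild-type tumors and at 18.7, 11.8, 13.1 and 8.01 CPM in ΔAgo2 tumors. Only wild-type tumor 1 overlapped with the ΔAgo2 group, where it exceeded ΔAgo2 tumor 4. Its log2 fold change was 1.00 ± 0.35 (SE), or 2.00-fold, with an adjusted p of 0.112. Oas1a and Oas1g share 730 windows of 100 identical bases, which is 40.9% of the Oas1a windows and 31.3% of the Oas1g windows, so the division of reads between them is uncertain. With their counts summed as 1 gene, a choice made after the data were seen, the level was 32.3 ± 10.2 CPM in wild-type and 52.1 ± 20.9 CPM in ΔAgo2 tumors (SD, n = 4 each). The summed gene differed by 0.69 ± 0.32 (SE) on the log2 scale, with an adjusted p of 0.191.

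Oas1b, at chr5:120812635-120824163, is known as the flavivirus resistance gene, and common laboratory strains such as C57BL/6J carry a truncating allele. The annotation lists it as a polymorphic pseudogene. It was at 3.47, 4.86, 1.58 and 4.87 CPM in wild-type and 5.13, 7.40, 5.43 and 4.05 CPM in ΔAgo2 tumors, and the groups overlapped. Oas1b differed by 0.60 ± 0.38 (SE) on the log2 scale, with an adjusted p of 0.322.

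Oas1c, at chr5:120800194-120812514, was the member with the lowest level per length. It was at 4.18, 2.24, 2.44 and 1.86 CPM in wild-type and 5.17, 4.02, 4.30 and 3.55 CPM in ΔAgo2 tumors. Wild-type tumor 1 alone reached into the ΔAgo2 range. Oas1c had a log2 fold change of 0.64 ± 0.32 (SE), with an adjusted p of 0.225. Oas1c shares 227 exonic bases with a gene on the opposite strand, Gm43069, and since the strand setting of the counting was not given, part of its count may belong to that gene.

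Oasl1, at chr5:114923240-114937915, was at 24.8, 23.1, 13.9 and 14.5 CPM in wild-type and 40.5, 29.4, 34.0 and 21.3 CPM in ΔAgo2 tumors. ΔAgo2 tumor 4 lay below 2 wild-type tumors, and the other 3 ΔAgo2 tumors lay above all of them. On the log2 scale Oasl1 differed by 0.71 ± 0.28 (SE), with an adjusted p of 0.139.

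Oasl2, at chr5:114896936-114912234, keeps synthetase activity in the mouse, unlike Oasl1. It was at 70.3, 52.7, 35.7 and 29.1 CPM in wild-type tumors and at 89.5, 122, 117 and 72.7 CPM in ΔAgo2 tumors. In CPM the groups did not overlap, although wild-type tumor 1 and ΔAgo2 tumor 4 were close. Means were 47.0 ± 18.5 and 100.5 ± 23.5 CPM (SD, n = 4 each). The log2 fold change of 1.09 ± 0.29 (SE), or 2.13-fold, had a 95% interval from 0.44 to 1.74 and an adjusted p of 0.0665, which misses the threshold. Without wild-type tumor 1 the log2 fold change was 1.36 and the adjusted p 0.0350, and without wild-type tumor 2 or 4 the adjusted p was 0.149 and 0.138.

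**Figure D2:**
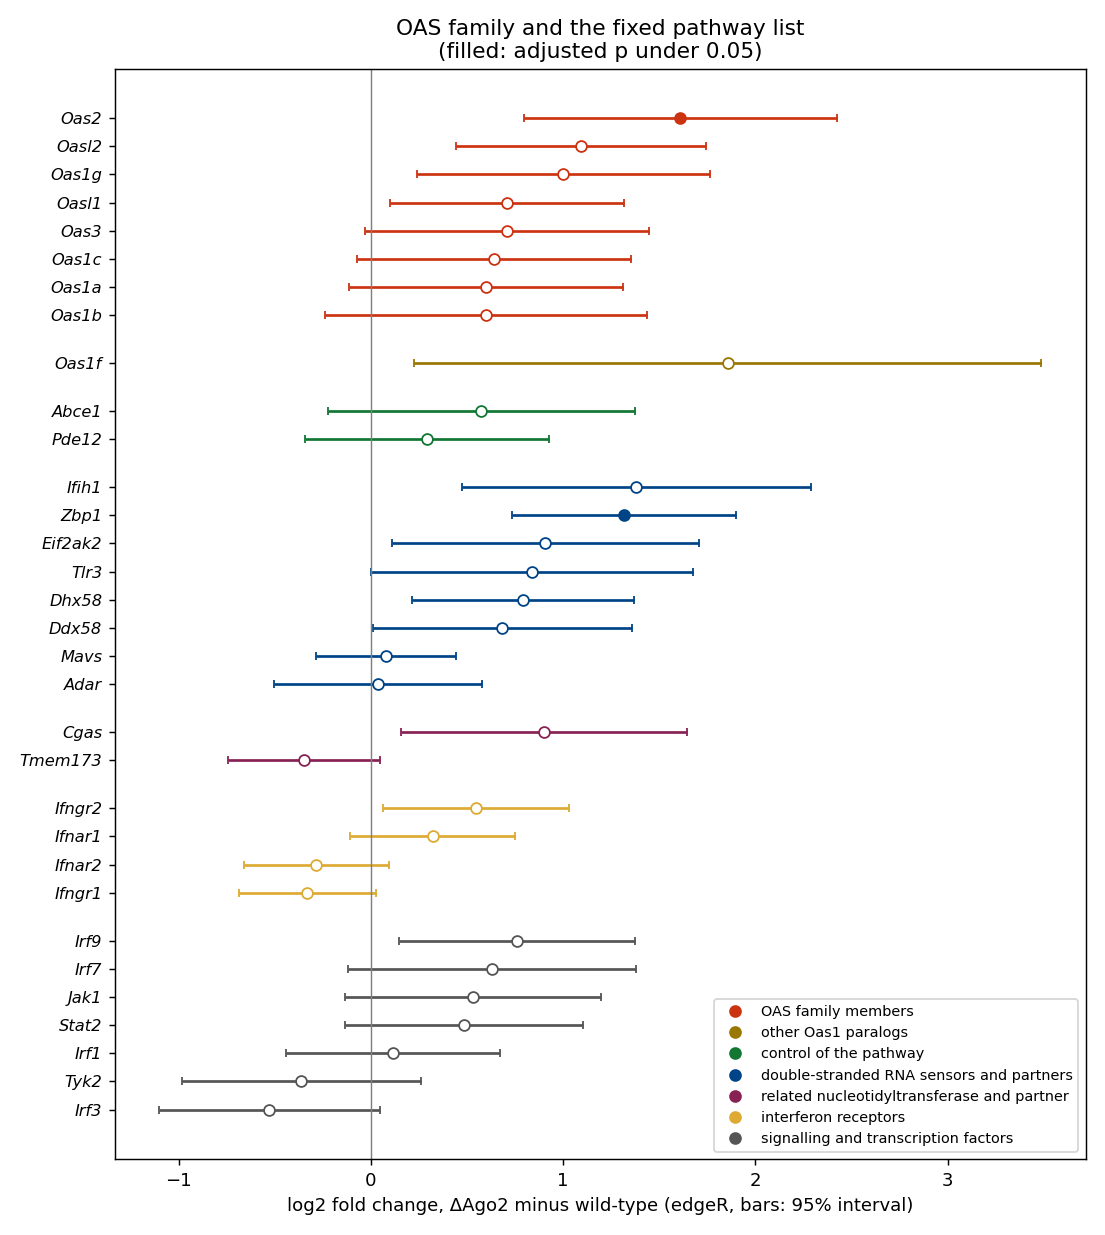
Log2 fold change (x axis, ΔAgo2 minus wild-type, edgeR) with 95% intervals for the 8 OAS genes and 24 of the 26 tested genes of the pathway list, grouped by role, with filled points past an adjusted p of 0.05. All 8 OAS points lie to the right of 0, and Oas2 and Zbp1 are the 2 filled points.

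Levels can be set against each other between genes only per length, so transcripts per 1000000 (TPM) are used here. In wild-type tumors Oas1a was highest, at 36.1 ± 12.7 TPM (SD, n = 4), and was followed by Oasl2 at 20.1 ± 9.58 and Oasl1 at 19.7 ± 7.67 TPM. Oas3 came next at 10.7 ± 5.36 TPM, then Oas2 at 7.37 ± 3.81 and Oas1g at 7.33 ± 3.21 TPM. Oas1b, at 4.78 ± 1.92 TPM, and Oas1c, at 3.02 ± 1.41 TPM, were lowest. Within this order the differences between Oasl2 and Oasl1, between Oas2 and Oas1g, and between Oas1b and Oas1c were smaller than their SD over the 4 tumors.

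In ΔAgo2 tumors Oas1a was again highest, at 60.5 ± 11.5 TPM (SD, n = 4), followed by Oasl2 at 49.5 ± 18.0, Oasl1 at 36.0 ± 6.48 and Oas2 at 27.0 ± 13.4 TPM. Oas3 was at 20.6 ± 9.32, Oas1g at 16.3 ± 3.17, Oas1b at 8.69 ± 3.49 and Oas1c at 5.37 ± 0.626 TPM. The 4 highest neighbours, from Oas1a down to Oas2, did not differ beyond their SD, and neither did Oas3 and Oas1g. Oas2 and Oas3 changed places: Oas3 was higher than Oas2 in 4 of 4 wild-type tumors, and Oas2 was higher than Oas3 in 4 of 4 ΔAgo2 tumors. Which members were apart between the groups depended on the measure. In TPM, Oas2 was apart as in CPM, and so were Oas1g and Oasl1. Oasl2 overlapped in TPM, with wild-type tumor 1 at 31.45 and ΔAgo2 tumor 1 at 30.82 TPM. For Oas1g and Oasl1 the margins were narrow: wild-type tumor 1 was at 10.94 and 27.11 TPM, and ΔAgo2 tumor 4 at 11.63 and 27.72 TPM. The share of all genes apart in TPM was not taken, so these separations have no background beside them. Over all genes the median log2 fold change was 0.21 and 0.28 in the filtered TPM settings and 0.03 with no TPM filter.

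Summed over the 8 genes, the family was at 160, 129, 76.2 and 71.6 TPM in wild-type tumors 1 to 4, and at 189, 288, 246.0 and 172 TPM in ΔAgo2 tumors 1 to 4. In TPM the sums of the 2 groups did not overlap, again with no share of all genes to set beside it. Summed in CPM they did, since wild-type tumor 1 was at 203 CPM and ΔAgo2 tumor 4 at 195 CPM. The means were 109 ± 42.6 and 224 ± 53.3 TPM (SD, n = 4 each).

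**Figure D3:**
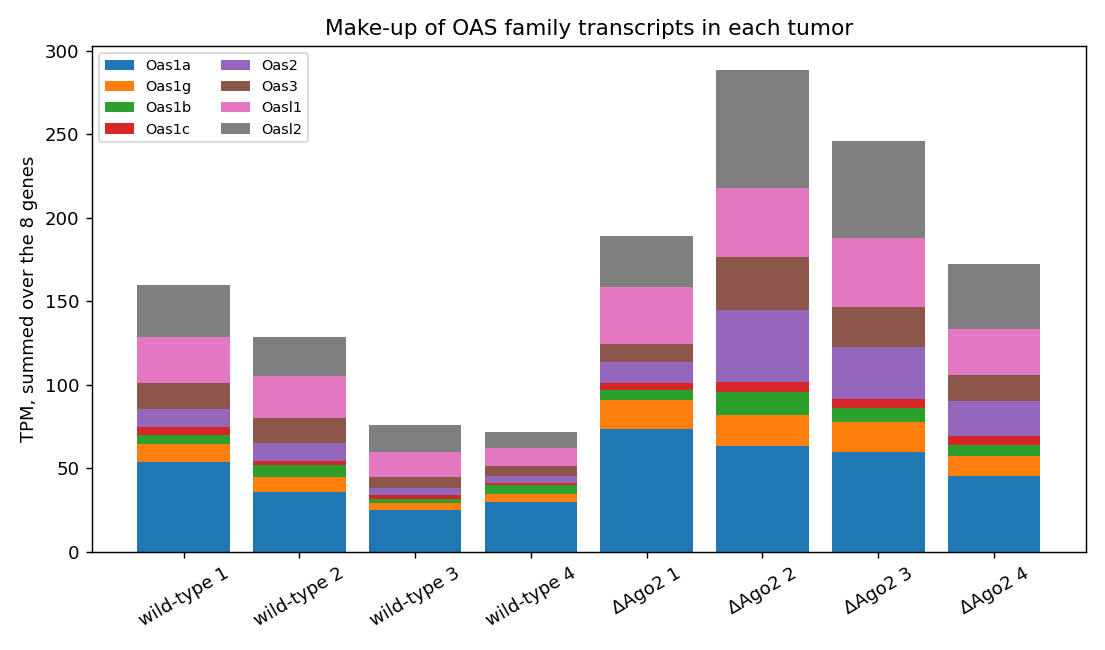
TPM of the 8 OAS genes (y axis, from 0), stacked for each of the 8 tumors. The ΔAgo2 columns reach 172 to 288 TPM and the wild-type columns 71.6 to 160 TPM, while Oas1a and the pair Oasl1 and Oasl2 hold most of each column.

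The make-up of the family overlapped between the groups for all 8 genes. Oas1a was 33.9 ± 5.83% of the family's TPM in wild-type and 27.9 ± 7.51% in ΔAgo2 tumors, and Oas2 was 6.50 ± 1.35% and 11.6 ± 3.69% (SD, n = 4 each). The share of Oas2 in ΔAgo2 tumor 1, at 6.36%, lay inside the wild-type range of 5.24 to 8.32%. The OAS-like pair made up 36.1 ± 5.46% in wild-type and 38.0 ± 2.58% in ΔAgo2 tumors, a difference of 1.86 percentage points. An exact two-sided permutation test over the 70 assignments of tumors to groups gave p = 0.629, where the smallest p this design allows is 0.0286. The sign of this difference was not stable, since it was -0.68 without wild-type tumor 4 and -3.73 with the Oas1 genes left out of the sum.

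ΔAgo2 tumor 1 departed from the other ΔAgo2 tumors in the balance between paralogs. The log2 CPM of Oas2 minus that of Oas1a was -1.10, -0.50, -1.39 and -1.60 in wild-type tumors, and -1.37, 0.69, 0.29 and 0.15 in ΔAgo2 tumors. The genes differ in length, so only the change of this difference between tumors is read, and not its sign. ΔAgo2 tumors 2, 3 and 4 lay above all wild-type tumors, and ΔAgo2 tumor 1 lay within the wild-type range. In TPM, Oas1a was above Oas2 in all 8 tumors. A trend with gene length moved with this balance only in part. The median deviation of 7291 genes over 4000 bp minus that of 3242 genes under 2500 bp, on the log2 scale, was -0.53 in wild-type tumor 4 and -0.65 in ΔAgo2 tumor 1, and 0.57, 0.20 and 0.34 in ΔAgo2 tumors 2, 3 and 4. In wild-type tumors 1 to 3 the trend was between -0.03 and 0.01, while the balance ran from -1.39 to -0.50. Oas2, with 4451 bp of exons, Oas3, with 7069 bp, and Oasl2, with 6374 bp, belong to the longer genes, and Oas1a, with 1885 bp, to the shorter. With a length correction in the fit the log2 fold change of Oas2 was 1.45 with an adjusted p of 0.0376 in edgeR, that of Oasl2 was 0.90, that of Oas3 0.45 and that of Oas1a 0.52. The correction moved the median of all genes to -0.14.

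**Figure D4:**
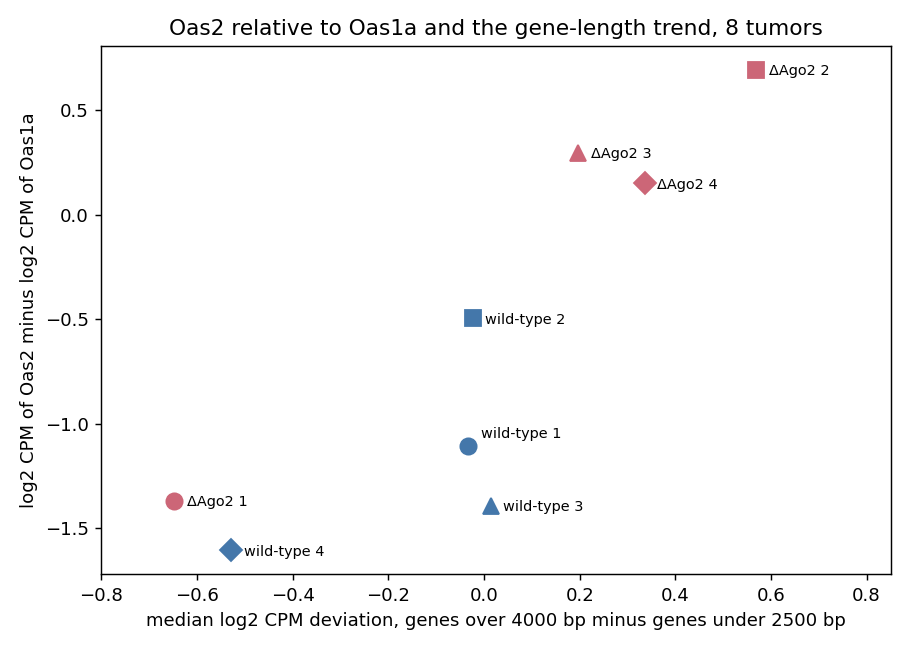
For each of the 8 tumors, the log2 CPM of Oas2 minus that of Oas1a (y axis) against the median log2 CPM deviation of genes over 4000 bp minus that of genes under 2500 bp (x axis). ΔAgo2 tumor 1 (-0.65, -1.37) lies near wild-type tumor 4 (-0.53, -1.60), and the other 3 ΔAgo2 tumors lie at the upper right.

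The members followed each other across tumors to differing degrees. The Pearson correlation of each member's log2 CPM with the mean of the other members over the 8 tumors, which share depth and genotype, was 0.94 for Oas1g, 0.93 for Oasl1, 0.92 for Oasl2, 0.90 for Oas2 and 0.90 for Oas3. It was 0.79 for Oas1c, 0.74 for Oas1a and 0.72 for Oas1b. After each group's mean was removed these values were between 0.52 and 0.87. The mean log2 deviation over the family was lowest in wild-type tumor 3, at -1.06, and highest in ΔAgo2 tumor 2, at 0.64. The 2 nearest tumors across the groups were wild-type tumor 1, at 0.06, and ΔAgo2 tumor 4, at 0.01.

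Among 10502 genes with a mean of at least 5 CPM, the 5 most like the family's mean profile over the 8 tumors were Dhx58 (r = 0.98), Coro2a (r = 0.98), Tapbpl (r = 0.95), Xaf1 (r = 0.94) and Sgk2 (r = 0.94). Within genotypes these values were 0.96, 0.95, 0.88, 0.95 and 0.84. Dhx58 encodes LGP2, a helicase that binds double-stranded RNA. Dhx58 was at 19.1 ± 5.65 CPM in wild-type and 33.0 ± 5.67 CPM in ΔAgo2 tumors (SD, n = 4 each), with an adjusted p of 0.102 in edgeR. Its groups did not overlap, against 8.05% of all genes apart in that direction. The family's profile holds the difference between the groups, so a choice by likeness to it favours genes that are apart.

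Abce1 encodes a factor that recycles ribosomes. Its log2 fold change was 0.57 with an adjusted p of 0.320, and that of Pde12, which encodes a phosphodiesterase that degrades 2'-5' chains, was 0.29 with 0.528. Both changed sign with the GC correction, to -0.12 and -0.40.

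A list of 34 genes around the family (other Oas1 paralogs, control of the pathway, double-stranded RNA sensors, interferon ligands, receptors and signalling) was read in the same fit. Of the 26 tested, 1 rose and 0 fell at the adjusted threshold of edgeR, 21 were above 0 (52.5% of all genes), and their median log2 fold change was 0.56. At an unadjusted p of 0.05, 11 of the 26 were past the threshold, all of them higher in ΔAgo2 tumors, against 13.7% of all genes. DESeq2's Wald test called 3 at its adjusted threshold, all higher, against 7.05% of all genes called higher by it. In CPM, 5 of the 26 were apart between groups and higher in ΔAgo2 tumors (Oas1f, Dhx58, Zbp1, Cgas and Ifngr2), against 8.05% of all genes. Another 3 were apart and lower in CPM (Tmem173, Ifnar2 and Ifngr1), against 8.36% of all genes. In TPM the groups overlapped for these 3 genes and for Oas1f.

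The gene that rose was Zbp1, which encodes a sensor of left-handed double-stranded nucleic acid that can trigger necroptosis. Zbp1 was at 34.0, 25.6, 23.3 and 27.4 CPM in wild-type tumors and at 105, 58.0, 65.6 and 46.9 CPM in ΔAgo2 tumors. The groups did not overlap, and ΔAgo2 tumor 1 was highest. The log2 fold change was 1.32 ± 0.26 (SE), or 2.49-fold, with an adjusted p of 0.0278 in edgeR. The call was lost in 6 of 23 alternatives: without wild-type tumor 2 (0.09996) or 4 (0.0727), without ΔAgo2 tumor 2 (0.0601) or 3 (0.0707), and with the replicate block alone (0.0825) or with a GC correction added to it (0.0725).

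Of the remaining Oas1 paralogs, Oas1f was at 0.787, 0.143, 0.0210 and 0.143 CPM in wild-type and at 0.985, 0.886, 1.16 and 1.45 CPM in ΔAgo2 tumors. Its groups did not overlap, but wild-type tumors 2, 3 and 4 had only 3, 1 and 1 counts, at or below the limit of 3, and the log2 fold change of 1.86 ± 0.74 (SE) had an adjusted p of 0.146. Oas1d, Oas1e and Oas1h had too few counts to test, with no count of Oas1h in any tumor.

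Among other sensors of double-stranded RNA, Ifih1, which encodes MDA5, was at 1.38 ± 0.41 (SE) on the log2 scale, with an adjusted p of 0.0841 in edgeR. Eif2ak2, which encodes the kinase PKR that halts translation, was at 0.91 with an adjusted p of 0.147, and Ddx58, which encodes RIG-I, was at 0.68 with 0.182. Tlr3, the endosomal receptor, was at 0.84 with 0.187. With a GC correction these were lower, at 0.83 for Ifih1, 0.37 for Eif2ak2, 0.35 for Ddx58 and 0.06 for Tlr3. Mavs, the adaptor of MDA5 and RIG-I, was at 0.08 with 0.784, and Adar, the editing enzyme that destabilises double-stranded RNA, at 0.04 with 0.940. Adar changed sign in 6 of 23 alternatives. Cgas, a DNA-activated synthetase of the same fold as OAS, was at 0.90 with an adjusted p of 0.130 and groups apart, and Tmem173, which encodes its effector STING, was at -0.35 with 0.233.

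Transcripts of the type I and type III interferons on the list were at or below the limit of 3 counts. Ifnb1 had no counts except 3 each in ΔAgo2 tumors 2 and 4, Ifna4 had 1 count in ΔAgo2 tumor 4, and Ifnl3 had none. Ifng was at 0.0953 to 0.717 CPM in wild-type and 0.102 to 0.718 CPM in ΔAgo2 tumors, with 2 to 35 counts, and was not tested.

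Receptor and signalling genes did not pass the adjusted threshold in either direction. Of the receptors, Ifnar1 had a log2 fold change of 0.32, Ifnar2 -0.28, Ifngr1 -0.33 and Ifngr2 0.55, with adjusted p of 0.303, 0.302, 0.215 and 0.151 in edgeR. Stat2 and Irf9 encode parts of the factor that binds the interferon response element, and their log2 fold changes were 0.48 and 0.76, with adjusted p of 0.286 and 0.124. Irf7, the factor that Oasl1 is known to restrain, was at 0.63 with 0.253. The kinases Jak1 and Tyk2 were at 0.53 and -0.36, and Irf1 and Irf3 at 0.11 and -0.53, with adjusted p of 0.218 or more.

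Markers of other cells, read in 12 lists, also varied between these tumors. The 5 skeletal muscle markers summed to 184 to 2825 CPM in wild-type and 29.4 to 154 CPM in ΔAgo2 tumors, with 0 of 5 log2 fold changes above 0, and the highest sum was in wild-type tumor 3, which was lowest of the 8 tumors in the mean log2 CPM deviation over the family. The 4 fibroblast markers summed to 4495 to 6777 CPM in wild-type and 2001 to 4380 CPM in ΔAgo2 tumors, with 2 of 4 above 0, and Col3a1 made up most of each sum. The 5 skin keratinocyte markers summed to 9.35 to 539.5 CPM and 424 to 827 CPM, with 5 of 5 above 0, and 1 was called (Krt10, adjusted p 0.0460 in edgeR). The 5 NK cell markers summed to 6.88 to 17.8 CPM and 14.9 to 27.0 CPM, with 5 of 5 above 0. Pan-leukocyte markers summed to 462 to 906 CPM and 433 to 840.0 CPM, with 3 of 5 above 0. Coro1a and Laptm5, at log2 fold changes of -0.87 and -0.05, made up most of each of these sums. Ptprc, of the same list, was at 13.9 to 33.1 CPM in wild-type and 35.5 to 83.6 CPM in ΔAgo2 tumors. Its groups did not overlap, against 8.05% of all genes apart in that direction, and its adjusted p was 0.0785 in edgeR. Macrophage and monocyte markers summed to 531 to 708 CPM and 475 to 694 CPM, with 3 of 7 above 0. Cd68, of this list, was apart and lower in ΔAgo2 tumors, as was the dendritic cell marker Flt3, against 8.36% of all genes. T cell markers had 5 of 5 above 0 and dendritic cell markers 1 of 5, and the sums of both lists overlapped. The sums of the neutrophil, B cell, endothelial and lung carcinoma lists overlapped too. Without wild-type tumor 3, the log2 fold change of Oas2 was 1.38 (adjusted p 0.0457), and the median over the 8 members was 0.58. The part of these cells in the family's level was not tested.

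**Figure D5:**
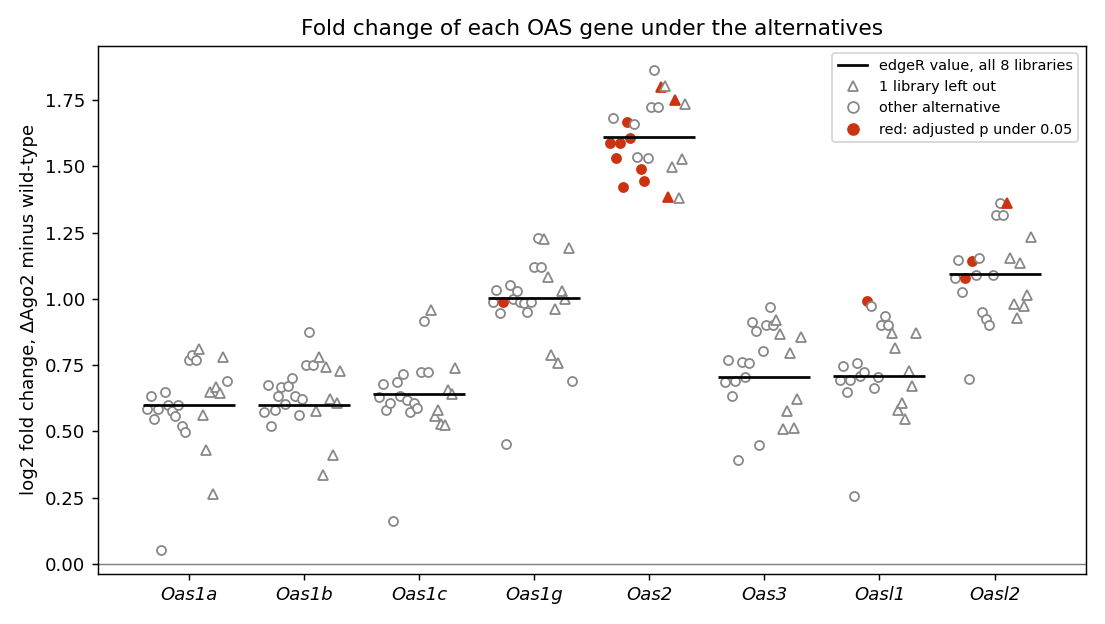
Log2 fold change (y axis, ΔAgo2 minus wild-type) of each OAS gene with all 8 libraries in edgeR (black line) and under each alternative (triangles, 1 library left out; circles, other settings; red, adjusted p under 0.05). Every point lies above 0, Oas2 lies between 1.38 and 1.86, and red points occur in Oas1g, Oas2, Oasl1 and Oasl2.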

How the data were processed

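RNA-seq of 8 whole LLC tumors was analysed. The authors deposited raw gene counts and TPM values (counts divided by gene length and scaled to a fixed total per library). For cultured cells the study's methods name alignment to ribosomal RNA and then mm10 and featureCounts, and the processing notes name STAR. Annotation release, strand setting and handling of multi-mapping reads were not given in the sources used here. Identifiers were matched to GENCODE M21 (99.29% of 55487).

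Counts were filtered with filterByExpr, scaled by TMM and compared with edgeR 4.0.16 (R 4.3.3) by the quasi-likelihood test with no covariate, with Benjamini-Hochberg adjustment over all 16061 genes tested, at 0.05. CPM values use TMM-scaled totals, and log2 CPM a prior count of 2. DESeq2 1.42.0 and limma 3.58.1 gave alternatives. The fit was tested on simulated data. Total counts ranged from 7903288 to 268564145 per library. All libraries carry batch label 1. Replicates are labelled biological replicates, and their counts differed beyond sampling noise. Promoter windows came from RefSeq (GRCm38.p6).

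Genes named are the 8 members, the pathway list (of which 2 genes are counted but not reported here), Ago2, and the 5 genes with the profile most like the family among those with a mean of at least 5 CPM. The members and lists were chosen with earlier results of these data known.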

Additional observations from a re-analysis of the deposited data

Results flagged for a closer look

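In 74 groups of 4 tumors, 5 held a tumor whose gap to the other 3 was larger than Dixon's 95% critical value, where chance alone gives about 1 in 20, or 3.7. None concerned the 8 members. For Oas1f, wild-type tumor 1 (0.787 CPM) stood above the others of its group (0.0210 to 0.143 CPM). In CPM, ΔAgo2 tumor 1 stood apart for 3 genes. Pde12 was lower there (12.1 CPM, others 22.1 to 23.3 CPM), while Irf1 (165 CPM, others 94.9 to 104 CPM) and Irf3 (60.1 CPM, others 36.6 to 39.0 CPM) were higher. For Irf9, ΔAgo2 tumor 4 (42.7 CPM) was below the others (52.2 to 52.7 CPM). In TPM, ΔAgo2 tumor 1 lay within the range of the others for Irf1 (90.85, others 75.26 to 95.69) and Irf3 (38.29, others 35.73 to 39.1). So did ΔAgo2 tumor 4 for Irf9 (26.94 TPM, others 21.26 to 35.75 TPM). ΔAgo2 tumor 1 is also the tumor with the lowest value of the gene-length trend.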

How the results depend on the processing

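All 8 members kept a fold change above 0 under every alternative run, and the median of the members stayed between 0.42 and 0.95. The number of members called moved from 1 to 0 with total-count scaling, thinning to the shallowest library, the replicate block and the 3 TPM settings, to 3 with DESeq2's Wald test (Oas1g, Oas2 and Oasl2, against 7.05% of all genes called higher) and to 2 with no count filter (Oas2 and Oasl2). With the replicate block and a GC correction it was 1, but the gene was Oasl1. With no count filter 1.70% of all genes were called higher. Leaving out 1 library gave 0 to 2 members, with 0.123% to 6.01% of all genes called higher. Calls over all genes moved from 560 to 2292 with DESeq2's Wald test, 4476 with voom and quality weights, 983 with no filter, 864 with a length correction, and 153, 107 and 77 with limma on log2(TPM + 1), on log2(TPM + 0.1) and on log2(TPM + 1) with no TPM filter. Leaving out 1 library gave 88 to 1793. Calls in the pathway list moved from 1 to 3 with DESeq2, 7 with voom and 2 with no filter. Over all genes these settings called 7.05%, 14.9% and 1.70% higher, and voom called 2083 of 16061 genes lower. Ifnar2 and Ifngr1, among the 7 called with voom, were lower. With 1 library left out the pathway calls ranged from 0 to 3.

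Tumors with the same number did not deviate together (correlations of -0.24, 0.10, -0.04 and -0.29). Those with different numbers ran from -0.22 to 0.32. The 4 values show no pairing by number, but are too few to exclude it. The replicate block gave 70 genes, 0 members and 0 pathway genes, and the block with a GC correction gave 239 genes, 1 member and 0 pathway genes.

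The OAS-like share reversed to -3.73 percentage points without the Oas1 genes, and ranged from -0.68 to 3.62 with 1 library left out. Uncalled genes that reversed were Adar (-0.0405 with upper quartile factors, -0.27 with the length correction, -0.0311 thinned, -0.12 to 0.21 with 1 library left out), Tyk2 (0.0774 with voom, 0.0233 with the GC correction, 0.0200 with block and GC), Abce1 (-0.12 and -0.11 with GC and with block and GC), Pde12 (-0.40 and -0.41 likewise, -0.0015 with length), Mavs (-0.0162 with length) and Irf1 (-0.0025 with length, -0.11 to 0.23 with 1 library left out). The median of all genes was at 0.21 and 0.28 under the filtered TPM settings, 0.16 with no filter and -0.14 with the length correction. The cause was not tested in any of these. Wild-type tumor 4, with 13 counts of Oas1c and 34 of Oas1b, limits the precision of the low members.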

Other observations

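Apol9a and Apol9b, the 2 genes outside the family whose promoter windows hold the 16 bases shared by Oas1a, Oas1g and Oas1c, were looked up after that match was seen. They encode apolipoprotein L proteins and are close copies, so their counts may be divided between them. Apol9a was at 12.4, 9.39, 4.35 and 14.8 CPM in wild-type and 48.2, 21.5, 25.4 and 19.0 CPM in ΔAgo2 tumors. Its groups did not overlap, against 8.05% of all genes apart in that direction. Apol9b was at 17.1, 13.9, 6.29 and 9.03 CPM in wild-type and 45.5, 19.7, 24.7 and 16.9 CPM in ΔAgo2 tumors, and ΔAgo2 tumor 4 lay just below wild-type tumor 1. The fitted differences were 2.82-fold for Apol9a and 2.30-fold for Apol9b (SE of 0.40 and 0.39 on the log2 scale), with adjusted p of 0.0665 and 0.0974 in edgeR, so neither passed the threshold.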
